A study of Homo sapiens with 12 samples.

Results

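The CST complex (CTC1, STN1 and TEN1) and shelterin (TERF1, TERF2, TERF2IP, POT1, TINF2 and ACD) are the protein complexes that maintain and cap human telomeres. Their 9 genes were taken by name from the deposited count table, and all 9 were present among its 59385 gene names. Of the 18166 genes with enough reads to be tested, 8 were CST or shelterin genes, and TEN1 was the member left out by the filter on low counts.

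The study measured mRNA translation in HEK293T cells, a human embryonic kidney line that carries SV40 large T antigen, after loss of PRRC2B, an RNA-binding protein. Cells that expressed a doxycycline-inducible control shRNA (shCtrl) or an shRNA against PRRC2B (shPRRC2B) were induced with doxycycline for 36 h. From each line, poly(A) RNA was sequenced from whole lysate (total RNA) and from the pooled heavy gradient fractions 6 to 10 (polysome RNA), with 3 biological replicates in each of the 4 groups and 12 libraries in all. Both lines had received doxycycline, and each line was a single stable clone, so that a difference between the shRNAs and a difference between the clones cannot be told apart.

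Shelterin coats the double-stranded telomeric repeats through TERF1 and TERF2 and the single-stranded overhang through POT1, and TINF2 and ACD (the protein TPP1) join these arms. It hides chromosome ends from the DNA damage response, and ACD also recruits telomerase. CST binds single-stranded DNA, ends telomerase action and brings DNA polymerase alpha-primase to fill in the C-rich strand. HEK293T cells keep their telomeres with telomerase.

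PRRC2B mRNA, the check of the knockdown, was at 272, 313 and 258 CPM (counts per 1000000 counts on the tested genes of a library, scaled by TMM, the trimmed mean of M-values) in the shCtrl total libraries and at 97.9, 103 and 100.5 in the shPRRC2B total libraries, a log2 change of -1.49 (SE 0.17, adjusted p = 4.25e-06, edgeR quasi-likelihood test). Total counts ranged from 9855734 to 20837542 per library. KRT8, KRT18, VIM, NEFM and PAX2, which HEK293-derived cells express, were detected, whereas LHX1 did not exceed 0.327 CPM. Some of these markers differed between the lines in total RNA, with log2 changes of -2.13 for KRT8 (adjusted p = 3.05e-09, edgeR), -1.57 for NEFM (adjusted p = 1.84e-06) and 0.96 for VIM (adjusted p = 0.00169), each larger than the change of any CST or shelterin gene there. KRT18 changed by 0.41 (adjusted p = 0.0252, edgeR), opposite to KRT8, and PAX2 by 0.25 (adjusted p = 0.319), with overlap between the lines. The part of these marker differences in the results was not tested. The summed level of 6 blood, liver, endothelial and fibroblast markers was 0 to 1.81 CPM, and PTPRC, CD3E and COL1A2 had at most 1 count in any library. PECAM1 reached 3 counts, ALB 5 and HBA1 19. HBA1 was at 0.951 to 1.81 CPM in the shPRRC2B polysome libraries and at 0 to 0.843 CPM in the shCtrl polysome libraries.

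CTC1 has a site in a crosslinking map of PRRC2B on RNA (PAR-CLIP), and its sequence is shown because it is where the depleted protein was found on a member's mRNA. CTC1 lies on the minus strand at chr17:8224815-8248058 (GRCh38). The site found for full-length PRRC2B and the site found for its RNA-binding fragment shared 99 nt at chr17:8226566-8226664, in the last exon (23 of 23) and in the 3′ UTR, 1515 nt after the stop codon. Of these 99 bases, 59 (59.6%) were C or T. The 30-nt stretch of the site with the highest count of C or T, at chr17:8226594-8226623 on the minus strand, held 23 such bases and reads, with its longest run of C and T in capitals:
CTC1 site: tcctgccgactacgtcataTTTTTTTCTTC

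In total RNA, the members were present at low to moderate levels. Per kilobase of canonical transcript, TERF2IP (the shelterin subunit RAP1) had the highest level in the shCtrl total libraries at 27.9 ± 1.85 CPM per kb (SD, n = 3), followed by ACD at 16.8 ± 2.34, TERF1 at 13.6 ± 0.912, TERF2 at 11.5 ± 0.256, TINF2 at 10.2 ± 0.825 and POT1 at 7.29 ± 0.519. The CST genes came last, with CTC1 at 3.92 ± 0.492 and STN1 at 1.88 ± 0.0914 CPM per kb. ACD and TERF1 overlapped over their replicates, and every other pair of neighbours in this order was separate. In the shPRRC2B total libraries the order was the same except that TINF2 (13.7 ± 0.236 CPM per kb) stood above TERF2 (12.5 ± 0.661).

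The order in polysome RNA was different. TINF2 led in the shCtrl polysome libraries at 23.9 ± 3.95 CPM per kb, overlapping TERF2IP at 20.6 ± 1.05, which overlapped ACD at 20.4 ± 2.64. STN1, last in total RNA, reached 6.74 ± 1.99 CPM per kb and overlapped POT1 and TERF2, and CTC1 was last at 0.979 ± 0.598. In the shPRRC2B polysome libraries TINF2 stood apart at the top with 40.5 ± 1.43 CPM per kb, and POT1 was below both STN1 and TERF2.

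**Figure D1:**
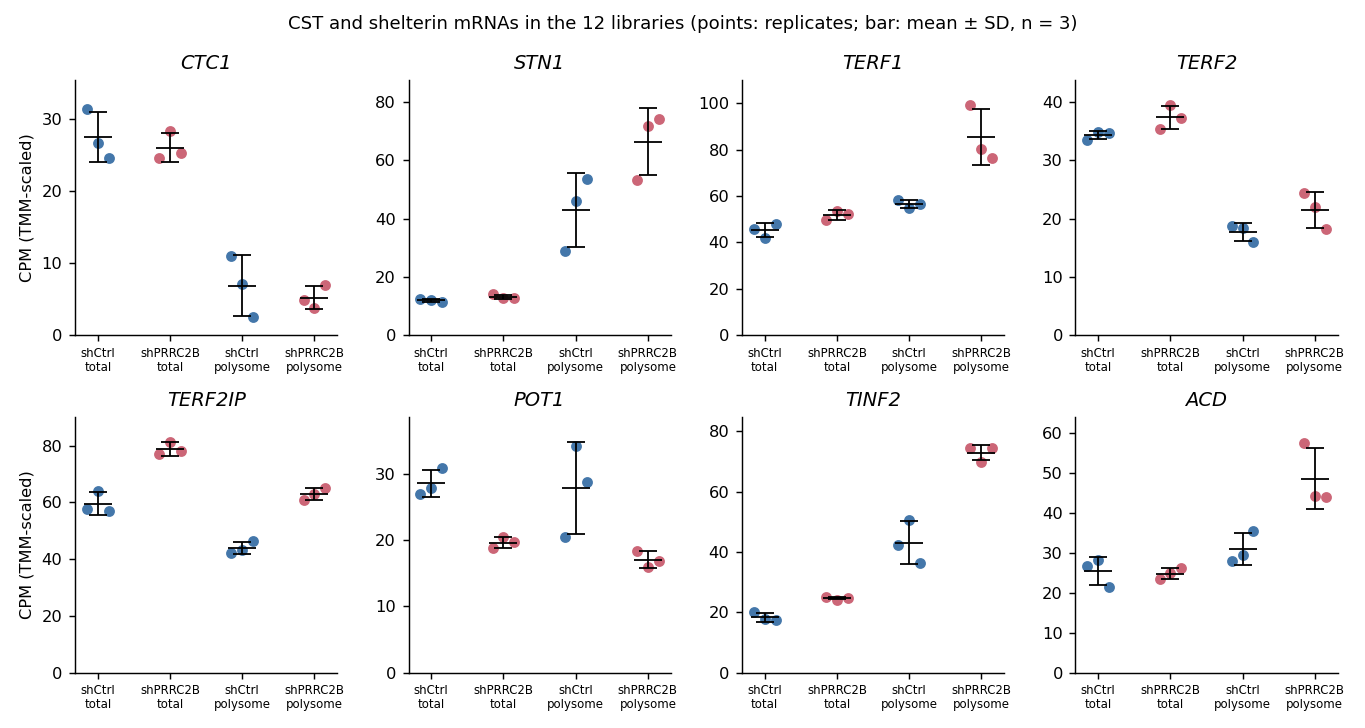
Level of each tested CST and shelterin mRNA (y axis, TMM-scaled CPM from 0) in the 4 groups of line and fraction (x axis). Points are the 3 replicates and bars the mean ± SD. STN1 rises from 11.4 to 14.1 CPM in total RNA to 28.9 to 74.1 CPM in polysome RNA, CTC1 goes from 24.6 to 31.4 down to 2.55 to 11.0 CPM, and POT1 is lower in shPRRC2B cells in both fractions.

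The first comparison asks how each mRNA is shared between polysomes and the whole cell within each line. A gene was called when the Benjamini-Hochberg adjusted p of edgeR's quasi-likelihood test was under 0.05 and the log2 difference was above 0.5 or below -0.5. In shCtrl cells 2 of the 8 members, STN1 and TINF2, were called higher in polysome RNA than in total RNA (32.5% of all tested genes were) and 2, CTC1 and TERF2, were called lower (39.8% of all tested genes). In shPRRC2B cells 4 were called higher, STN1, TERF1, TINF2 and ACD (background 36.6%), and CTC1 and TERF2 were again called lower (background 42.3%). The median log2 ratio of the members was 0.12 in shCtrl cells and 0.26 in shPRRC2B cells, against -0.22 in both lines over all tested genes.

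The CST subunits CTC1 and STN1 lay at opposite ends of the members. CTC1, the large subunit of CST, was at 31.4, 26.6 and 24.7 CPM in the shCtrl total libraries and at 11.0, 7.16 and 2.55 CPM in the shCtrl polysome libraries. STN1, an OB-fold subunit that stimulates DNA polymerase alpha-primase, was at 12.6, 11.9 and 11.4 CPM in shCtrl total RNA. In polysome RNA of the same cells it was at 28.9, 46.2 and 53.6 CPM. No total library overlapped a polysome library for either gene. The log2 polysome-to-total ratio was -1.98 (SE 0.31, adjusted p = 1.38e-05, edgeR) for CTC1 and 1.84 (SE 0.19, adjusted p = 1.19e-07) for STN1 in shCtrl cells. In shPRRC2B cells it was -2.32 (SE 0.31, adjusted p = 2.18e-06) and 2.33 (SE 0.19, adjusted p = 3.04e-09).

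Because both counts come from the same library, the ratio of STN1 to CTC1 counts does not depend on how libraries are scaled. It was 0.400 to 0.462 in the shCtrl total libraries and 0.453 to 0.573 in the shPRRC2B total libraries. It was 2.64, 6.45 and 21.0 in the shCtrl polysome libraries and 10.7, 10.9 and 18.8 in the shPRRC2B polysome libraries. STN1 was therefore the rarer mRNA in every total library and the more abundant in every polysome library. From total to polysome RNA the pair moved apart by 3.82 on the log2 scale (14.1-fold) in shCtrl cells and by 4.65 (25.1-fold) in shPRRC2B cells.

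The canonical transcripts of both genes are long, 7039 nt for CTC1 and 6369 nt for STN1, but differ in what they encode. The coding sequence takes 3651 nt of CTC1 and 1104 nt of STN1, whose 3′ UTR is 5115 nt. When the trend of log2 CPM with transcript length was removed from every library, the CTC1 ratio became -0.51 (adjusted p = 0.158) in shCtrl cells and -0.34 (adjusted p = 0.346) in shPRRC2B cells and was no longer called. STN1 stayed called, at 3.18 and 4.14. The CTC1 counts behind these values were 23 to 117 per polysome library and 357 to 832 per total library.

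Among the shelterin genes, TINF2, which encodes the hub TIN2, had the highest polysome-to-total ratio before any correction for length. It was at 20.1, 17.6 and 17.4 CPM in shCtrl total RNA and at 42.4, 50.5 and 36.3 CPM in shCtrl polysome RNA, a log2 ratio of 1.23 (SE 0.14, adjusted p = 2.19e-07, edgeR), and the ratio in shPRRC2B cells was 1.56 (SE 0.13, adjusted p = 4.73e-09). TERF2, which protects the t-loop and represses end joining, had the lowest share of the shelterin genes, also before any correction for length, at -0.95 (SE 0.14, adjusted p = 7.19e-06) and -0.80 (SE 0.14, adjusted p = 3.69e-05). TERF2IP, which binds telomeres through TERF2, was at -0.44 and -0.32, inside the 0.5 limit. It passed that limit with TMM within each fraction (-1.45 and -1.27), with no count filter (-0.57 and -0.50) and after removal of the length trend (-1.02 and -1.14). With the length trend removed, the TINF2 ratio was 0.33 in shCtrl and 0.36 in shPRRC2B cells and no longer called, below those of TERF1 (0.68 and 1.12) and POT1 (0.61 and 0.60), and ACD turned to -0.96 and -0.63.

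Polysome and total libraries can be scaled to each other in more than 1 way, which moves every ratio together. With TMM factors taken within each fraction, the median over all tested genes went from -0.22 to -1.22 in shCtrl cells and from -0.22 to -1.16 in shPRRC2B cells, and in shCtrl cells the calls went from 5906 higher and 7222 lower to 3189 higher and 10683 lower. Under that scaling the TERF1 ratio turned from 0.33 to -0.68 in shCtrl cells and from 0.72 to -0.22 in shPRRC2B cells, the ACD ratio turned from 0.27 to -0.73 in shCtrl cells and went from 0.97 to 0.030 in shPRRC2B cells, and TINF2 in shCtrl cells was 0.22 and no longer called. CTC1, STN1 and TERF2 kept their direction and their call, with STN1 at 0.83 and 1.39. The order of the members is the same under both scalings.

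**Figure D2:**
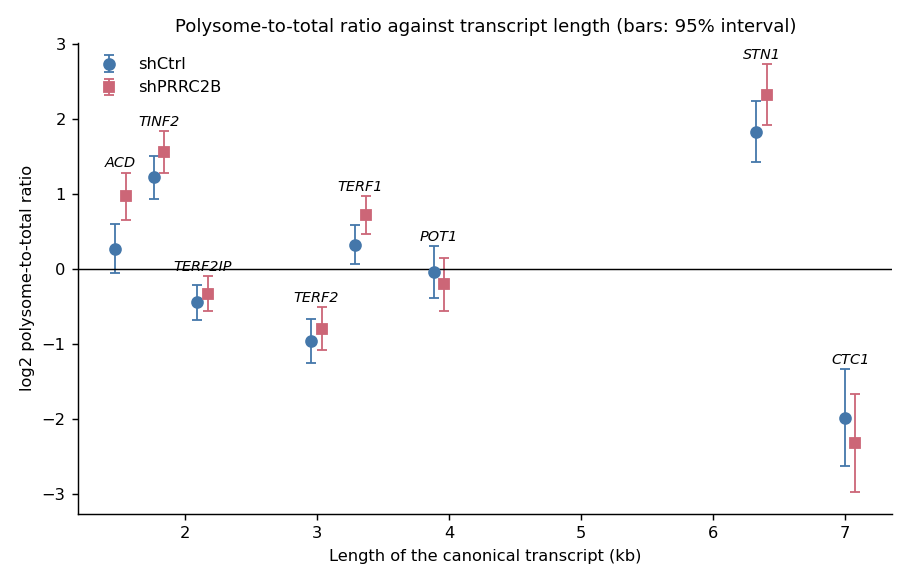
log2 polysome-to-total ratio (y axis, 95% interval as bars) of the 8 tested members in shCtrl (circles) and shPRRC2B cells (squares) against the length of the canonical transcript in kb (x axis). STN1 (1.84 and 2.33) and CTC1 (-1.98 and -2.32), the longest transcripts, lie at opposite ends. The ratios of TERF1 in both lines and of ACD in shCtrl cells change sign when libraries are scaled within each fraction.

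The second comparison asks whether total RNA of the members differed between the lines. Only POT1 passed, and it fell. Of the 8 members, 0 were called higher (background 14.9% of all tested genes), although TERF2IP and TINF2 had an unadjusted p under 0.05 in that direction, and 1 was called lower (background 14.1%), with the same counts from DESeq2. POT1, which binds the single-stranded TTAGGG overhang and keeps ATR signalling off it, was at 27.0, 27.9 and 30.9 CPM in shCtrl total RNA and at 18.8, 20.5 and 19.7 CPM in shPRRC2B total RNA. All 3 shPRRC2B libraries were below all 3 shCtrl libraries, with a log2 change of -0.54 (SE 0.16, adjusted p = 0.0155, edgeR). The call was lost without shCtrl total replicate 3 (adjusted p = 0.0652) and without shPRRC2B total replicate 1 (0.0690) or 3 (0.0528), with changes of -0.48, -0.51 and -0.54, and over all alternatives the adjusted p ranged from 1.94e-05 to 0.0690.

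TERF2IP and TINF2 had positive changes that passed the adjusted p but not the 0.5 limit. TERF2IP was at 57.8, 64.0 and 56.8 CPM in shCtrl and at 76.9, 81.4 and 78.1 CPM in shPRRC2B total RNA (log2 change 0.40, SE 0.11, adjusted p = 0.00844, edgeR). TINF2 went from a mean of 18.4 ± 1.49 to 24.7 ± 0.425 CPM (log2 change 0.42, SE 0.13, adjusted p = 0.0206). In both, the lines did not overlap, which also held for STN1, TERF1 and TERF2. The other 5 members did not pass the adjusted threshold, with log2 changes of -0.08 for CTC1, -0.04 for ACD, 0.12 for TERF2, 0.14 for STN1 and 0.20 for TERF1. The median over the 8 members was 0.13, against 0.04 over all tested genes. In these bulk libraries, fewer cells that express a gene and less of its RNA per cell cannot be told apart.

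Polysome RNA showed the larger differences. Of the 8 members, 5 rose in shPRRC2B cells (STN1, TERF1, TERF2IP, TINF2 and ACD; background 18.4% of all tested genes), POT1 fell (background 21.4%), and CTC1 and TERF2 were not called. The median log2 change of the members was 0.56, against -0.01 over all tested genes. The 6 calls covered both arms of shelterin, its bridge and the CST subunit STN1.

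TINF2 and POT1 kept their polysome call in each of the 20 alternatives computed. TINF2 went from 42.4, 50.5 and 36.3 CPM to 74.3, 69.9 and 74.5 CPM, so that every shPRRC2B library lay above every shCtrl library (log2 change 0.76, SE 0.13, adjusted p = 1.89e-04, edgeR). POT1 went from 20.5, 34.3 and 28.8 CPM to 18.4, 16.0 and 16.9 CPM, also without overlap (log2 change -0.70, SE 0.17, adjusted p = 0.00283). Within single libraries, TINF2 counts were 1.26 to 2.07 times those of POT1 in shCtrl polysome RNA and 4.04 to 4.40 times in shPRRC2B polysome RNA, and 0.564 to 0.744 against 1.18 to 1.33 times in total RNA.

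ACD, the partner that POT1 binds directly, moved opposite to it in polysomes. ACD was at 27.8, 29.4 and 35.4 CPM in shCtrl and at 57.4, 44.3 and 43.95 CPM in shPRRC2B polysome RNA, without overlap (log2 change 0.66, SE 0.15, adjusted p = 0.00224, edgeR). The ratio of POT1 to ACD counts was 0.737 to 1.17 in shCtrl polysome libraries and 0.320 to 0.385 in shPRRC2B polysome libraries, while in total RNA it was 0.992 to 1.44 and 0.752 to 0.824. Without shPRRC2B polysome replicate 1, the ACD change was 0.41 (adjusted p = 0.0350), under the 0.5 limit, and with the length trend removed it was 0.35 (adjusted p = 0.0858).

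TERF1, which binds double-stranded repeats and helps their replication, was at 58.4, 54.7 and 56.8 CPM in shCtrl and at 99.1, 80.4 and 76.6 CPM in shPRRC2B polysome RNA (log2 change 0.59, SE 0.12, adjusted p = 8.86e-04, edgeR). TERF2IP was at 42.2, 43.1 and 46.5 CPM and at 60.7, 62.9 and 65.2 CPM (log2 change 0.52, SE 0.11, adjusted p = 0.00122). In both, no library of one line overlapped the other line. TERF2IP sat just above the 0.5 limit and fell below it without any one of the 6 polysome libraries (0.40 to 0.46), with an adjusted p of at most 0.0151. It was also below the limit with no count filter (0.43, adjusted p = 0.0298) and with the length trend removed (0.31, adjusted p = 0.0329). TERF1 fell below the limit without shCtrl polysome replicate 2 (0.47) or 3 (0.49) and without shPRRC2B polysome replicate 1 (0.36). TERF2 was at 18.7, 18.4 and 16.0 CPM against 24.3, 22.0 and 18.3 CPM, which overlapped (log2 change 0.28, adjusted p = 0.121).

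STN1 polysome RNA was at 28.9, 46.2 and 53.6 CPM in shCtrl and at 53.2, 71.9 and 74.1 CPM in shPRRC2B cells. The highest shCtrl library lay just above the lowest shPRRC2B library, and the log2 change was 0.63 (SE 0.19, adjusted p = 0.0103, edgeR). The call was lost without shCtrl polysome replicate 1, where the change was 0.32 (adjusted p = 0.0739), and without shPRRC2B polysome replicate 2 (0.49, adjusted p = 0.0672) or 3 (0.46, adjusted p = 0.0766).

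CTC1 polysome RNA was at 11.0, 7.16 and 2.55 CPM in shCtrl and at 4.90, 3.82 and 6.94 CPM in shPRRC2B cells. The shCtrl libraries spanned the whole range of the shPRRC2B libraries, and the log2 change of -0.42 (SE 0.34, 95% interval -1.14 to 0.30, adjusted p = 0.335, edgeR) was within that spread. The value rested on single libraries. Without shCtrl polysome replicate 3 the change was -0.91 (adjusted p = 0.00870), and without shCtrl polysome replicate 1 it was 0.012.

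**Figure D3:**
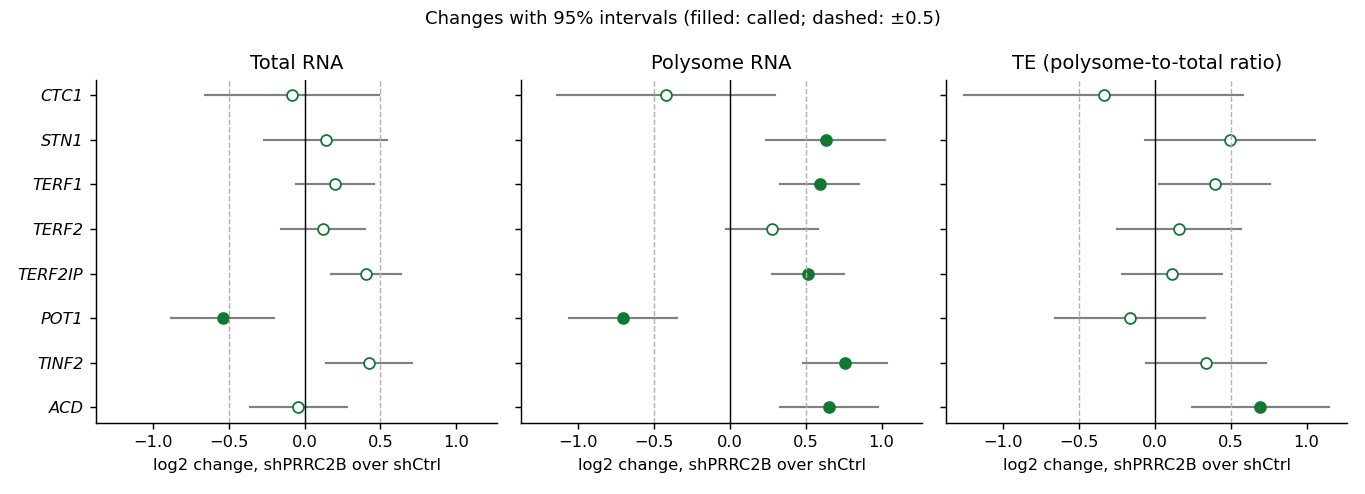
log2 change of shPRRC2B over shCtrl cells (x axis) with its 95% interval for the 8 tested members (y axis) in total RNA, polysome RNA and translation efficiency. Filled circles were called, and dashed lines mark 0.5 and -0.5. In polysome RNA, 5 members lie to the right and POT1 (-0.70) to the left, while in translation efficiency only ACD (0.70) is filled.

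The third comparison is the study's central readout, the change of translation efficiency (TE), obtained by dividing the ratio of polysome to total RNA after PRRC2B knockdown by the same ratio in the control line. Only ACD passed. Of the 8 members, 1 was called higher (background 10.7% of all tested genes) and 0 were called lower (background 16.4%), and DESeq2 gave the same counts. The members' median was 0.25, against -0.03 over all tested genes, and 6 of the 8 values were above 0. Of the 8, 0 had a lower TE at an unadjusted p under 0.05.

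ACD rose in polysome RNA with total RNA at 26.7, 28.2 and 21.4 CPM in shCtrl and 23.3, 24.8 and 26.2 CPM in shPRRC2B cells, which overlapped. Its TE change was 0.70 (SE 0.21, 95% interval 0.24 to 1.15, adjusted p = 0.0232, edgeR). The value kept its sign in all 20 alternatives, with adjusted p from 0.00950 to 0.368. The call was lost on leaving out any one of 6 libraries (replicates 1 and 2 of shCtrl total, 1 and 2 of shPRRC2B total, 2 of shCtrl polysome and 1 of shPRRC2B polysome), with changes of 0.49 to 0.69 and adjusted p from 0.0577 to 0.0786. With each culture (line and replicate number) as a block it was 0.68 (adjusted p = 0.0523), and with the length trend removed 0.33 (adjusted p = 0.312), neither of them called. ACD has the shortest canonical transcript of the tested members, 1511 nt.

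STN1 had the next highest TE change, 0.49 (SE 0.27, 95% interval -0.07 to 1.05, adjusted p = 0.182, edgeR), which was not called. With the length trend removed it was 0.96 (adjusted p = 0.0191) and was called in place of ACD. TERF1 was at 0.39 (SE 0.17, adjusted p = 0.102) and TINF2 at 0.34 (adjusted p = 0.198), with intervals of 0.03 to 0.76 and -0.06 to 0.73. TERF2 was at 0.16 and TERF2IP at 0.11. For TERF2IP, the change of 0.52 in polysome RNA stood beside one of 0.40 in total RNA.

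POT1 had a TE change of -0.16 (SE 0.23, 95% interval -0.65 to 0.33, adjusted p = 0.646, edgeR), since its total and polysome RNA were both lower. CTC1, the member with the PRRC2B site printed above, had a TE change of -0.34 (SE 0.44, 95% interval -1.25 to 0.58, adjusted p = 0.607). This interval, the widest of the members, holds both no change and a fall of more than 1 on the log2 scale, so that neither can be excluded from these counts. The sign turned to 0.17 once the length trend was taken out and to 0.14 when shCtrl polysome replicate 1 was left out. The lowest value, -0.78, came without shCtrl polysome replicate 3. The paper, by contrast, lists CTC1 among bound mRNAs with lower TE. The TE in that list came from the same total and polysome sequencing at 36 h, as a ratio of length-scaled levels (FPKM). It is therefore another measure of the same experiment and not separate evidence. The paper reports recovery of CTC1 mRNA with endogenous PRRC2B. It also reports a shift of this mRNA to lighter gradient fractions, by RT-qPCR before 36 h. Those fraction profiles differ from the pooled polysome counts here in time and in measure.

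**Figure D4:**
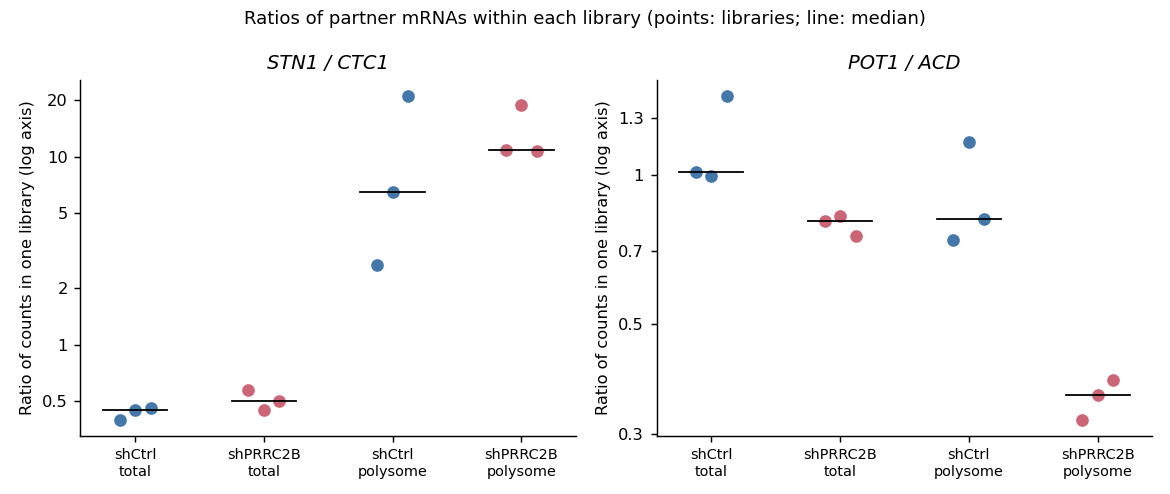
Ratio of counts of STN1 to CTC1 and of POT1 to ACD within each library (y axis, log scale) in the 4 groups (x axis). Points are libraries and lines group medians. STN1 to CTC1 lies between 0.400 and 0.573 in total RNA and between 2.64 and 21.0 in polysome RNA, and POT1 to ACD in shPRRC2B polysomes (0.320 to 0.385) lies below every other group.

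TEN1, the smallest CST subunit, could not be followed. Its count was 0 in 10 libraries and 1 in the other 2 (shCtrl total replicates 1 and 2), below a floor of 3 counts, which is 0.107 to 0.333 CPM depending on the library. All 974 bases (100.0%) of its canonical transcript at chr17:75979240-76000586 are also exons of TEN1-CDK3, a readthrough gene on the same strand, and a read pair that matched more than 1 gene was not counted. TEN1-CDK3 itself held 10 to 24 counts in the total libraries and 0 to 3 in the polysome libraries. The count of TEN1 thus gives no level for its mRNA.

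Other members share smaller parts of their exons with a gene of the table on the other strand, and strand was not used in counting. For TINF2 this is GMPR2 (21.9% of exon bases), for TERF2IP KARS1 (4.0%), for ACD CARMIL2 (1.8%) and for POT1 POT1-AS1 (1.3%). On its own strand, STN1 shares 17.9% of its exon bases with ENSG00000289744, and 32.6% of its canonical transcript is shared. TERF2 shares 1.7% with ENSG00000260371 on the same strand, and TINF2 6.0% with ENSG00000289979 on the other. None of these names is in the count table, which used an earlier annotation release. CTC1 and TERF1 overlap no annotated gene. The part of these overlaps in the values of STN1, TERF2, TINF2, TERF2IP, ACD and POT1 was not tested.

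Across the 12 libraries, the log2 CPM of CTC1 was followed most closely by RP5-967N21.11 (Pearson r = 0.99), LINC00342 (0.98) and HOXB5 (0.98). These are a description over 4 groups of 3 libraries, and the points share their fraction, their line and their library depth.

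The wider telomere machinery was read from 3 lists. Of 10 telomerase genes (the catalytic subunit, the H/ACA proteins that bind its RNA, and assembly factors), all were tested, 2 rose in TE (background 10.7% of all tested genes) and 0 fell (background 16.4%), with a median of 0.11. NHP2 (0.91, SE 0.24, adjusted p = 0.0103, edgeR) and NOP10 (0.64, SE 0.20, adjusted p = 0.0264) are both small H/ACA proteins that also act on ribosomal RNA. With the length trend removed, neither was called (0.37 and 0.040). The NOP10 call was lost in 8 of the 12 fits that left out 1 library. Of the NHP2 canonical transcript, 48.2% is shared with another gene, so that its count is uncertain.

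DNA polymerase alpha-primase, the enzyme that CST brings to telomeres, has 4 genes. Of these, 2 fell in TE (background 16.4%) and 0 rose (background 10.7%), with a median of -0.90, while PRIM1 (-0.62, adjusted p = 0.216, edgeR) and POLA2 (0.06, adjusted p = 0.893) were not called. Of the PRIM1 canonical transcript 37.5% is shared with another gene, and of that of POLA2 55.8%, so that their counts are uncertain. POLA1, the catalytic polymerase subunit, was at -1.37 (SE 0.23, adjusted p = 3.82e-04, edgeR) and PRIM2, the large primase subunit, at -1.17 (SE 0.28, adjusted p = 0.00466). Both kept the call in all 20 alternatives. In polysome RNA they changed by -0.97 and -0.80. In total RNA the changes were 0.39 for POLA1 (adjusted p = 0.0457, edgeR) and 0.38 for PRIM2 (adjusted p = 0.136), neither of them called.

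Of 21 shelterin-associated and telomere processing genes, 20 were tested, 9 fell in TE (background 16.4%) and 1 rose (background 10.7%), with a median of -0.64. SLX4, a nuclease scaffold, was at -1.48 (SE 0.38, adjusted p = 0.00785, edgeR) and ATR, the kinase that POT1 holds off, at -1.14 (SE 0.21, adjusted p = 8.43e-04). Once the length trend was removed, 2 of the list were called lower and 2 higher, and SLX4 (-0.96, adjusted p = 0.0715) and ATR (-0.56, adjusted p = 0.0693) were not. RTEL1, a helicase that unwinds t-loops, rose by 1.66 (SE 0.53, adjusted p = 0.0276) from 3 to 13 counts per shCtrl polysome library to 21 to 50 per shPRRC2B polysome library. Of its canonical transcript, 95.2% is shared with another gene, so that its count is uncertain, and its call was lost in 7 of the 12 fits that left out 1 library.

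**Figure D5:**
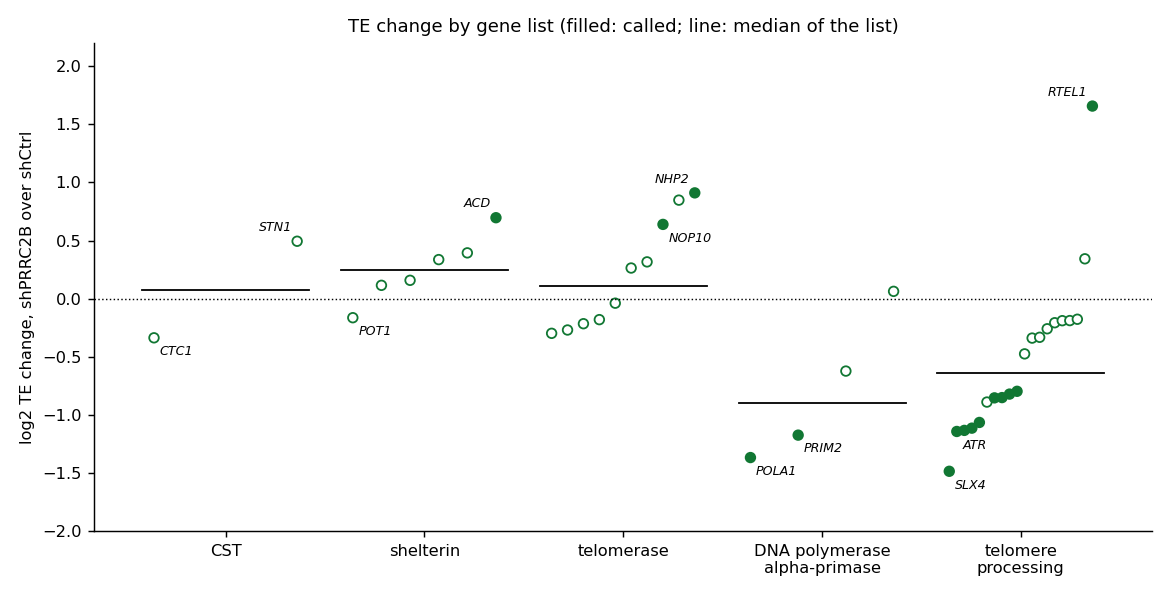
log2 TE change, shPRRC2B over shCtrl (y axis), of the tested genes of CST, shelterin and the 3 accompanying lists (x axis). Filled circles were called and lines are list medians, which lie at 0.25 for shelterin, 0.11 for telomerase, -0.90 for DNA polymerase alpha-primase and -0.64 for telomere processing.

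TERT, the telomerase reverse transcriptase, was singled out after its values were seen. It was at 8.38, 7.52 and 6.56 CPM in shCtrl and at 16.0, 14.7 and 16.4 CPM in shPRRC2B total RNA, a log2 change of 1.06 (SE 0.30, adjusted p = 0.0121, edgeR). In polysome RNA it rested on 2, 10 and 23 counts in shCtrl and 51, 59 and 41 in shPRRC2B cells (log2 change 1.91, adjusted p = 0.00168). Its TE change of 0.85 was not called (adjusted p = 0.254) and rested on single libraries, at 1.80 (adjusted p = 0.0148) without shCtrl polysome replicate 3 and 0.25 (adjusted p = 0.647) without shCtrl polysome replicate 1.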

How the data were processed

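Poly(A) RNA of 12 HEK293T samples was sequenced. The authors demultiplexed with bcl2fastq 2.19.0, trimmed with Trimmomatic 0.36, aligned to GRCh38 with HISAT2 (2.1.0 per the submitters' processing notes) and counted read pairs per GENCODE 38 gene name with featureCounts (Subread 2.0.1), without strand and without pairs that matched several genes. They deposited raw read counts, not normalised.

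Here, edgeR 4.0.16 in R 4.3.3 was run on all 12 libraries: filterByExpr (minimum count 10), TMM factors, quasi-likelihood fits of the 4 group means, and Benjamini-Hochberg adjustment over 18166 genes. CPM used TMM-scaled library sizes. SE is the log2 change over the square root of F, and 95% intervals use the fit's degrees of freedom. The fit was tested on simulated counts in which the 4 groups shared a mean profile, apart from the genes given a TE change. Real polysome and total RNA differ in composition, so the simulation did not test the scaling between fractions. Total counts were 9855734 to 20837542 per library. Lengths and overlaps came from GENCODE 44 canonical transcripts on GRCh38, a later release than that of the counts. The length trend was fitted by lowess (span 0.3) to the 15762 tested genes (86.8%) with a length.

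All members and, of each accompanying list, up to 3 called genes with the largest TE change were named. Members and lists were chosen with earlier results of these data known. Alternatives were other size factors, TMM within each fraction, DESeq2 1.42.0, no count filter, no limit on the log2 change, each fraction alone, replicate or culture blocks, removal of the length trend, and leaving out each library. Those for the accompanying lists were added after the data were seen. Same-numbered samples showed no shared deviation: 18 correlations of same-numbered deviations lay between -0.0596 and 0.0507. This cannot tell whether total and polysome samples of the same number came from the same culture. No libraries were identical. Coordinates of the CTC1 site came from the study's PAR-CLIP tables and its bases from GRCh38.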

Additional observations from a re-analysis of the deposited data

Results flagged for a closer look

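The effect of the fraction differed between the lines for ACD: its polysome-to-total log2 ratio was 0.27 in shCtrl and 0.97 in shPRRC2B cells, and the test of the difference itself gave 0.70 (adjusted p = 0.0232, edgeR quasi-likelihood test, n = 3 per group). The call did not hold with each culture as a block (0.68, adjusted p = 0.0523). The cause was not tested.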

How the results depend on the processing

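Of 8 members, TE calls went from 1 to 0 with each culture as a block, and ranged from 0 to 1 when 1 library was left out. Total RNA calls ranged from 0 to 1 when 1 library was left out and were 3 with no limit on the log2 change. Polysome calls ranged from 3 to 6 (3 without shPRRC2B polysome replicate 1). With TMM within each fraction, 7 members in place of 4 had a called ratio in shCtrl cells. The replicate block changed no count of member calls (TE 1, total 1, polysome 6, ratios 4 and 6). Same-numbered samples showed no shared deviation, which does not settle whether they came from the same culture.

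Signs turned in these values. With the length trend removed, TE of CTC1 was 0.17 and of TERF2IP -0.13, the total change of ACD 0.022, the POT1 ratio 0.61 and the ACD ratio -0.96 in shCtrl cells, and 0.60 and -0.63 in shPRRC2B cells. With the replicate block added, they were 0.21, -0.13, 0.025, 0.60, -0.96, 0.61 and -0.63, TE of POT1 was 0.0067 and the CTC1 polysome change 0.017. With TMM within each fraction, the ratio of TERF1 was -0.68 and of ACD -0.73 in shCtrl cells, and of TERF1 -0.22 in shPRRC2B cells. Leaving out 1 library gave TE of -0.78 to 0.14 for CTC1 and -0.0042 to 0.23 for TERF2, total changes of -0.16 to 0.020 for CTC1 and -0.15 to 0.038 for ACD, a polysome change of -0.91 to 0.012 for CTC1 and a shCtrl ratio of -0.23 to 0.11 for POT1.

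For the accompanying lists, telomerase TE calls were 2 higher and 0 lower in the main fit. They were 0 higher and 1 lower with the length trend removed, so that both rises were lost and another gene was called lower. Calls were 0 with the replicate block added, and 1 to 3 when 1 library was left out. Telomere processing calls were 4 and 3 in place of 10. The causes were not tested. Among the tested members, CTC1 had the fewest counts in every polysome library, 23 to 117.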
